A study of Mus musculus with 6 samples.

Results

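The genes encoding the hormones of the pancreatic islet and the peptides released with them were described in islets of Ctrl and cKO mice. They were taken by name from the gene list of the deposited expression values and comprised *Ins1*, *Ins2*, *Iapp*, *Gcg*, *Sst*, *Ppy*, *Pyy*, *Ghrl*, *Ucn3* and *Npy*, which are 10 of 55060 genes. All 10 passed the filter on low values, a mean FPKM of at least 0.1 over the 6 samples, as did 21211 genes in all. FPKM counts fragments relative to the length of the gene and the size of the library, so that levels of different genes can be set side by side. Each type of endocrine cell in the islet is known for its main hormone: β cells for insulin, α cells for glucagon, δ cells for somatostatin, PP cells for pancreatic polypeptide and ε cells for ghrelin. Mice carry a pair of insulin genes, *Ins1* and *Ins2*, and β cells store insulin in granules together with islet amyloid polypeptide. Insulin lowers blood glucose and glucagon raises it, while somatostatin restrains the release of both.

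Gene expression was compared in the series between Ctrl and cKO mice aged 12 weeks, with 3 replicates of islets per genotype. In cKO mice (*Ins2‐cre; Parn f/f*), Cre recombinase under the *Ins2* promoter removes floxed exon 7 of *Parn*, which encodes a poly(A)-specific ribonuclease, in β cells. The Ctrl group was made of *Parn f/f* mice and other littermates, and whether a given Ctrl sample carried Cre was not given in the sources used here, so that Cre and the loss of *Parn* cannot be told apart. Islets were sequenced whole, and fewer cells of a type and less RNA per cell cannot be told apart in such samples. That the samples came from separate animals was not stated in the labels, and p-values then measure only the spread between these samples.

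Whole numbers of reads could be read back from the FPKM values in every sample (100% of the values above 0, within 0.05 reads). The reads on genes numbered 17519109, 16470783 and 17143763 in Ctrl (replicates 1, 2 and 3, in this order throughout), and 17064511, 16289408 and 17944775 in cKO. The deposited FPKM had been scaled so that the median ratio of a gene to its geometric mean over the samples was equal in all 6 samples. Differences in FPKM between the groups are therefore relative to the median gene, and the total FPKM was left to vary, from 527180 to 562154 in Ctrl and from 471689 to 511025 in cKO. Ratios between genes and shares of the total do not depend on this scaling. Means are given ± SD over the samples of a group (n = 3 in each).

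Ctrl replicate 1 stood apart from the other samples. Its score on the first principal component, which held 34.7% of the variance, was -52.4, while the remaining samples had scores of -2.91 or above. The summed FPKM of the leukocyte markers *Ptprc*, *Cd68* and *Cd74*, all 3 above 0 in every sample, was 313.8 in this sample and 113.6 to 185.3 elsewhere, with *Cd74* the most abundant of them. Results are therefore given with and without this sample where they rest on it, and the part of the leukocyte RNA in them was not tested.

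*Parn* (ENSMUSG00000022685) had FPKM values of 6.64 to 8.34 in Ctrl and 4.61 to 6.15 in cKO, so that the groups did not overlap, with reads on the exons left in place included (log2 fold change, log2FC, -0.44, standard error, SE, 0.135, limma adjusted p = 0.563). The islet origin was checked against the markers of endocrine cells outside the hormone genes. All 8 β cell markers, all 7 α cell markers and all 3 δ cell markers were above 0 in every sample. The summed FPKM of the β cell markers, led by *G6pc2*, was 2385 to 2995 in Ctrl and 2686 to 2859 in cKO. That of the α cell markers, led by *Ttr*, was 806.2 to 1059 in Ctrl and 569.9 to 954.7 in cKO, and that of the δ cell markers, led by *Rbp4*, was 113.9 to 164.7 in Ctrl and 138.3 to 172.2 in cKO. The groups overlapped in all of these sums.

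The levels of the 10 genes spanned from the most abundant transcript to a few reads. *Ins2* was the most abundant gene of the whole list by mean FPKM over the 6 samples, *Ins1* ranked 2, *Iapp* 3, *Ppy* 4, *Gcg* 5, *Sst* 7 and *Pyy* 13. *Ucn3* ranked 116, *Npy* 865 and *Ghrl* 9590. In both groups, the ranges of neighbours in this order were separate except for *Iapp* and *Ppy*, and *Ppy* and *Gcg*, whose ranges overlapped in Ctrl as well as in cKO. The place of *Ppy* next to *Iapp* and *Gcg* is thus not resolved beyond the spread between samples. *Iapp* was above *Gcg* in all pairs of Ctrl samples, and their ranges overlapped in cKO.

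**Figure D1:**
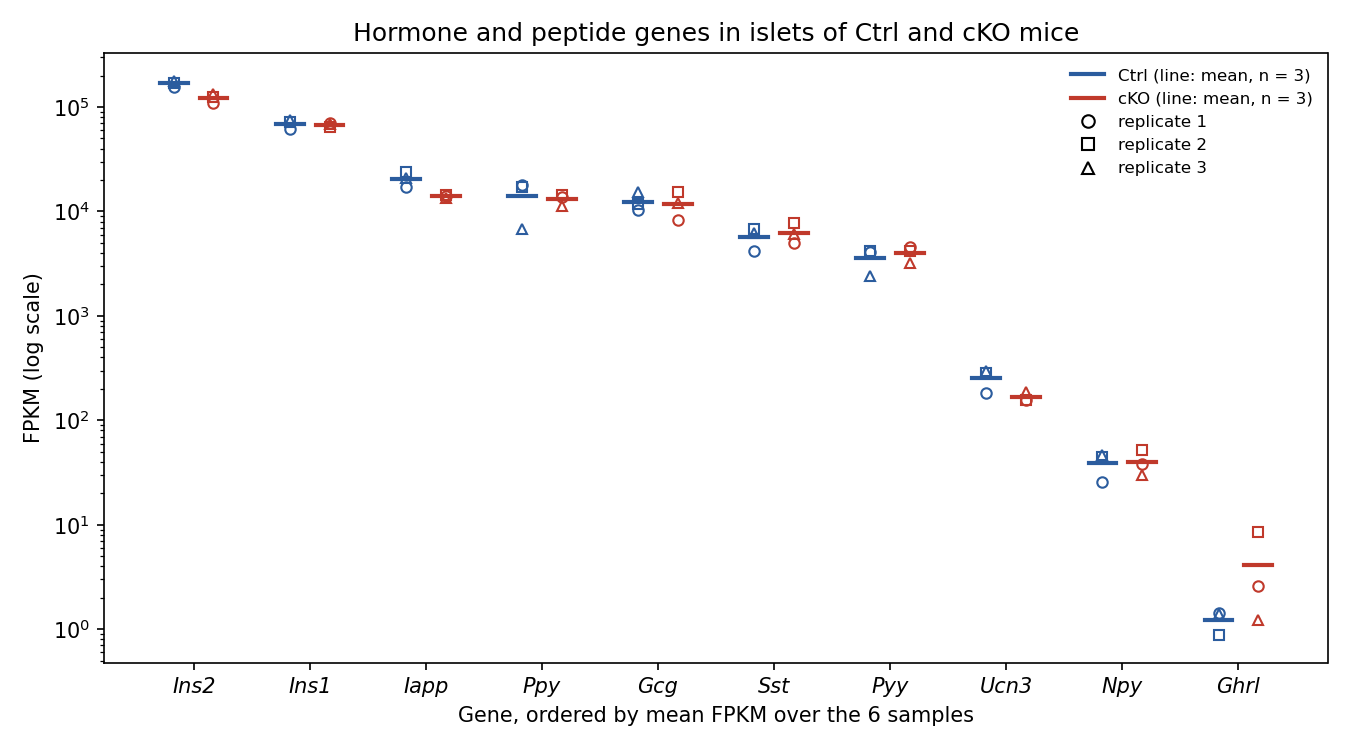
FPKM on a log scale of the 10 genes in each sample, with a symbol for each replicate and a line at the mean of the 3 samples of each group (Ctrl blue, cKO red). The cKO samples lie below all Ctrl samples for *Ins2* and *Iapp*, and *Ppy* in Ctrl replicate 3 and *Ghrl* in cKO replicate 2 lie away from the rest of their groups.

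Of the 10 genes, 0 passed an adjusted p under 0.05, as did 0 of all 21211 genes (0%), for which the smallest adjusted p was 0.264 (limma with Benjamini-Hochberg adjustment). Without Ctrl replicate 1, 9 genes passed, none of them a hormone gene, and with pseudocounts of 0.1 and 10 instead of 1, 3 and 1 passed. At an unadjusted p under 0.05, *Ins2*, *Iapp* and *Ucn3*, which are 3 of the 10, were lower in cKO, beside 636 or 3% of all genes, and 0 were higher, beside 921 or 4.34%. With FPKM rescaled to equal totals, the split of all genes was 304 lower and 1720 higher. That rescaling adds 0.14 to the log2FC of each abundant gene alike, *Ins1*, *Ins2* and *Gcg* among them, and moves the median of all genes by 0.091. The lower genes numbered 1109 without Ctrl replicate 1 and 414 without cKO replicate 3. In 2 of the 10 genes, *Ins2* and *Iapp*, all cKO samples were under all Ctrl samples, beside 1278 or 6.03% of all genes. The opposite was found in 0 of the 10, beside 1508 or 7.11%. The median log2FC of the 10 genes was -0.0042 and that of all genes was -0.014.

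*Ins2* (ENSMUSG00000000215, GRCm38 chr7:142678656-142743381, minus strand) encodes insulin 2, the mouse counterpart of the insulin gene of other mammals. Its FPKM was 154877, 170487 and 178676 in Ctrl and 109030, 124186 and 132945 in cKO. Every cKO sample was below every Ctrl sample. The mean was 168013 ± 12091 in Ctrl and 122054 ± 12099 in cKO, 27.4% lower. The log2FC was -0.46 with an SE of 0.116 (limma unadjusted p = 0.00635, adjusted p = 0.476). Leaving out 1 sample gave -0.53 (cKO replicate 3) to -0.38 (cKO replicate 1), and the unadjusted p remained under 0.05. After rescaling to equal totals it was -0.33, and -0.30 with the acinar markers left out of the totals (unadjusted p = 0.0296 and 0.0327). Few genes reach this level, and with a variance prior that follows the mean expression the SE was 2.87 and the unadjusted p 0.877, which ends the call. Sampling of reads sets no limit here, since between 2512973 and 3899983 reads lay on the gene in each sample.

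*Ins1* (ENSMUSG00000035804, GRCm38 chr19:52264323-52265456, plus strand) encodes insulin 1, from a retrotransposed copy found in rodents. The FPKM of *Ins1* was 61862, 71594 and 74399 in Ctrl and 69820, 63963 and 68582 in cKO. The cKO values lay within the range of the Ctrl values. The means were 69285 ± 6580 for Ctrl and 67455 ± 3087 for cKO, with a log2FC of -0.035 (SE 0.109, limma adjusted p = 0.962). The sign of this difference was not stable, and it was 0.018 without Ctrl replicate 3 and 0.0027 without cKO replicate 2.

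The ratio of *Ins2* to *Ins1* compares both insulin genes within a sample. It was 2.50, 2.38 and 2.40 in Ctrl and 1.56, 1.94 and 1.94 in cKO. The Ctrl samples lay close together and above every cKO sample, of which replicate 1 was the lowest. The mean ratio was 2.43 ± 0.0655 in Ctrl and 1.81 ± 0.218 in cKO. The log2 ratio differed by -0.43 (exact two-sided permutation test, p = 0.1, which is the smallest that 3 samples against 3 can give, adjusted p = 0.471 over 11 ratios). Leaving out cKO replicate 1 gave -0.32, and leaving out Ctrl replicate 1 gave -0.41.

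The transcripts of both insulin genes are alike, which bears on how reads are assigned. Their coding sequences, of 324 bases in *Ins1* and 330 in *Ins2*, were identical at 300 of 330 aligned positions (90.9%). The longest run that both share is shown because reads lying within it cannot be assigned to a single gene by sequence. It has 54 bases, at positions 271 to 324 of the *Ins1* coding sequence and 277 to 330 of that of *Ins2*, which is the end of each without the stop codon.
Shared by Ins1 and Ins2: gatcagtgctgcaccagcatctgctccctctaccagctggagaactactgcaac
How the authors treated such reads was not given in the sources used here, so the split between *Ins1* and *Ins2* is uncertain. The level of *Ins2* per length is also tied to the gene model: its length of 1312 bases covers the exons of 9 annotated transcripts of 259 to 918 bases, whereas *Ins1* has 1 transcript. The absolute ratio of *Ins2* to *Ins1* depends on these lengths, and the difference in its log2 between the groups does not.

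*Ins1* and *Ins2* together took a large part of all transcripts. Their share of the total FPKM was 40.9%, 43.1% and 48.0% in Ctrl and 36.5%, 39.9% and 39.4% in cKO. Every cKO sample was below every Ctrl sample. The mean was 44.0% ± 3.65 in Ctrl and 38.6% ± 1.82 in cKO (exact two-sided permutation test, p = 0.1, the smallest possible). *Ins2* alone held 31.1% ± 2.44 in Ctrl and 24.9% ± 2.26 in cKO, and *Ins1* held 12.8% ± 1.23 and 13.7% ± 0.450. All 10 genes together held 51.0%, 54.5% and 57.9% in Ctrl and 45.9%, 51.8% and 48.5% in cKO, with overlap between the groups (exact permutation test, p = 0.2). The difference of the insulin share was -5.37 percentage points with all samples, -3.36 without Ctrl replicate 3 and -6.92 without Ctrl replicate 1.

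Markers of acinar cells, which make digestive enzymes and surround the islets, varied between the samples. All 7 of 7 were above 0 in every sample, *Ctrb1* was the most abundant, and together they made up 2.10%, 3.12% and 1.21% of the total FPKM in Ctrl and 5.90%, 1.71% and 4.81% in cKO. The insulin share was lowest in cKO replicate 1, where the acinar share was highest. With the acinar markers left out of the total, a setting chosen after the data were seen, the insulin share was 44.9% ± 3.44 for Ctrl and 40.3% ± 1.33 for cKO, and the groups still did not overlap. Other acinar transcripts remained in the total, and their part was not tested. All 4 endothelial markers were above 0 in every sample, with *Plvap* the most abundant, and their summed FPKM was 99.1, 84.7 and 97.2 in Ctrl against 109.1, 122.2 and 139.0 in cKO, without overlap. The 3 stromal markers, led by *Col3a1* and above 0 in every sample, summed to 6.42, 4.80 and 7.28 in Ctrl against 6.51, 18.3 and 17.3 in cKO. The part of these cells in the results was not tested.

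*Iapp* (ENSMUSG00000041681, GRCm38 chr6:142298423-142303961, plus strand) encodes islet amyloid polypeptide, or amylin, which slows gastric emptying and is secreted with insulin. Its FPKM was 17011, 23853 and 20792 in Ctrl and 14109, 14450 and 13486 in cKO. The cKO samples lay close together below all Ctrl samples. The mean was 20552 ± 3427 in Ctrl and 14015 ± 488.9 in cKO, which is 31.8% lower (log2FC -0.54, SE 0.141, limma adjusted p = 0.498). The unadjusted p of 0.00776 became 0.480 with the variance prior that follows the mean, and the log2FC was -0.67 without Ctrl replicate 1 and -0.42 without Ctrl replicate 2. Relative to insulin, *Iapp* gave 7.85, 9.85 and 8.22 FPKM per 100 FPKM of insulin in Ctrl and 7.89, 7.68 and 6.69 in cKO, with overlap between the groups (exact permutation test, p = 0.2, adjusted p = 0.471). The gene lies inside *Slco1a5* on the opposite strand, whose FPKM was 0.431 to 1.02. Strand use in the counting was not given.

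*Ucn3* (ENSMUSG00000044988, GRCm38 chr13:3940688-3945349, minus strand) encodes urocortin 3, a peptide of mature β cells that stimulates δ cells. The FPKM of *Ucn3* was 184.5, 283.6 and 297.7 in Ctrl and 155.7, 156.6 and 188.4 in cKO. Only Ctrl replicate 1 fell within the range of the cKO samples. The log2FC was -0.58 (SE 0.204, limma unadjusted p = 0.0270, adjusted p = 0.616), and without Ctrl replicate 1 it was -0.80 (unadjusted p = 0.00100). After rescaling to equal totals the unadjusted p was 0.0559, and leaving out either of the other Ctrl samples or cKO replicate 1 or 2 also took it above 0.05. *Ucn3* was the least abundant of the β cell peptides, with 0.107 ± 0.0186 FPKM per 100 FPKM of insulin in Ctrl and 0.0879 ± 0.00520 in cKO.

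The upstream sequences of *Iapp* and *Ucn3* are shown because both genes had lower values in cKO, and that of *Ins1* because its values did not part the groups. Of the 10 genes, 9 matched the RefSeq promoter table (GRCm38.p6), with 13 windows, and *Ins2* had no entry. The 250 bases before each start are given 5′ to 3′ on the strand of the gene. Capitals mark TAAT on either strand, the core that homeodomain factors such as PDX1 bind, and matches may overlap. *Ins1* lies on the plus strand at chr19:52264047-52264296, *Iapp* on the plus strand at chr6:142298175-142298424 and *Ucn3* on the minus strand at chr13:3945350-3945599.
Ins1: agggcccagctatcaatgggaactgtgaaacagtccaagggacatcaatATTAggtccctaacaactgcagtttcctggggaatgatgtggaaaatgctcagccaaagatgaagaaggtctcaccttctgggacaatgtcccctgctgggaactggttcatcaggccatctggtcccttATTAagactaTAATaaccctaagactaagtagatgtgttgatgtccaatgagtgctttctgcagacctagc
Iapp: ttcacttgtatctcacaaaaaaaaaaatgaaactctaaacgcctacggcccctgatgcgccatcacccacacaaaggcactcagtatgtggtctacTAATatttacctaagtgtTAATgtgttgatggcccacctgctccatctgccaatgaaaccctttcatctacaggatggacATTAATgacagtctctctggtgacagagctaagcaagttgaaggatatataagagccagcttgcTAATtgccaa
Ucn3: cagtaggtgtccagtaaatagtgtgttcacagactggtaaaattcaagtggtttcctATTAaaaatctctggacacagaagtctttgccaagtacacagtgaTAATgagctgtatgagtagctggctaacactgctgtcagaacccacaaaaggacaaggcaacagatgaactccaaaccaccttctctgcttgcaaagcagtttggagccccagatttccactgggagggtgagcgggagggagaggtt
TAAT occurred 3 times in the *Ins1* window, 5 times in that of *Iapp* and 2 times in that of *Ucn3*. It was present in 5 of the 13 windows of the hormone genes, beside 54.9% of the 32851 windows of this length in the table. A match is a description of these letters and no site.

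*Gcg* (ENSMUSG00000000394, GRCm38 chr2:62474530-62483650, minus strand) encodes glucagon. The FPKM of *Gcg* was 10252, 11721 and 15328 in Ctrl and 8219, 15396 and 12028 in cKO. The cKO samples spanned the whole Ctrl range, and the log2FC of -0.092 (SE 0.262, limma adjusted p = 0.959) turned to 0.15 without cKO replicate 1 and 0.070 without Ctrl replicate 3. *Sst* (ENSMUSG00000004366, GRCm38 chr16:23889573-23890958, minus strand) encodes somatostatin. The FPKM of *Sst* was 4166, 6821 and 6196 in Ctrl and 4949, 7815 and 6046 in cKO. The groups overlapped, with a log2FC of 0.14 (SE 0.244, limma adjusted p = 0.923) that was -0.077 without Ctrl replicate 1.

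*Ppy* and *Pyy* are neighbours of the same gene family, 5356 bases apart on the minus strand of chromosome 11, and encode pancreatic polypeptide and peptide YY, which act on the Y receptors of the gut and brain. *Ppy* (ENSMUSG00000017316) had 17895, 17271 and 6846 FPKM in Ctrl and 13903, 14340 and 11221 in cKO. Ctrl replicate 3 was far below the other samples, and the cKO samples lay between it and the remaining Ctrl samples. The log2FC was 0.027 (SE 0.379, limma adjusted p = 0.994), and without Ctrl replicate 3 it was -0.43 (unadjusted p = 0.0292, adjusted p = 0.639). *Pyy* (ENSMUSG00000017311) had 4123, 4156 and 2428 FPKM in Ctrl and 4575, 4202 and 3220 in cKO. Ctrl replicate 3 was again the lowest, and the log2FC of 0.19 (SE 0.25, limma adjusted p = 0.892) was -0.065 without it. The ratio of *Ppy* to *Pyy* was 3.77 ± 0.830 in Ctrl and 3.31 ± 0.239 in cKO, with overlap (exact permutation test, p = 0.5, adjusted p = 0.611).

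*Npy* (ENSMUSG00000029819, GRCm38 chr6:49822710-49829507, plus strand) encodes neuropeptide Y, a relative of both. Its FPKM was 25.8, 44.9 and 46.9 in Ctrl and 38.2, 51.7 and 30 in cKO, with overlap and a log2FC of 0.039 (SE 0.289, limma adjusted p = 0.986). The lowest value was that of Ctrl replicate 1, without which the log2FC was -0.23. *Ghrl* (ENSMUSG00000064177, GRCm38 chr6:113716119-113719880, minus strand) encodes ghrelin, a hormone mainly of the stomach. Its FPKM was 1.43, 0.884 and 1.39 in Ctrl and 2.59, 8.58 and 1.23 in cKO. These values rest on 27, 15 and 25 reads in Ctrl and 49, 161 and 24 in cKO. The high value of cKO replicate 2 came with a 95% Poisson interval of 137.1 to 187.9 reads, above the counts of the other samples, and such intervals cover counting error only. The log2FC on the log2(FPKM + 1) scale, which understates changes of low genes, was 0.93 (SE 0.506, limma adjusted p = 0.755), 0.35 without cKO replicate 2 and 1.40 without cKO replicate 3 (unadjusted p = 0.0197). *Mboat4*, whose product attaches the acyl group to ghrelin, was at an FPKM of 0.341 or below. *Ghrl* shares 695 bases with *Gm44033* and 3 with *Gm26982* on the opposite strand, whose FPKM reached 0.778 and 2.09, so its reads are uncertain where strand was not used.

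Relative to insulin, the hormones of the other islet cells had higher means in cKO, with overlap between the groups in each case. The denominator includes *Ins2*, which was lower in cKO, and this raises all of these ratios. In FPKM itself, the log2FC was -0.092 for *Gcg*, 0.14 for *Sst*, 0.027 for *Ppy* and 0.19 for *Pyy*. It was 0.039 for *Npy* and 0.93 for *Ghrl*. Higher ratios are thus not in themselves higher levels of these hormones. *Gcg* gave 4.73, 4.84 and 6.06 FPKM per 100 FPKM of insulin in Ctrl and 4.60, 8.18 and 5.97 in cKO. The log2 ratio differed by 0.23 (exact permutation test, p = 0.7, adjusted p = 0.700), which was 0.017 without cKO replicate 2 and 0.43 without cKO replicate 1. *Sst* gave 1.92, 2.82 and 2.45 in Ctrl and 2.77, 4.15 and 3.0 in cKO, a difference of 0.46 in the log2 ratio (exact permutation test, p = 0.2, adjusted p = 0.471). Only Ctrl replicate 2 reached the range of the cKO samples, and without cKO replicate 2 the difference was 0.28. For *Ppy*, *Pyy*, *Npy* and *Ghrl* the log2 ratios to insulin differed by 0.35, 0.51, 0.36 and 1.64, with adjusted p between 0.471 and 0.700 in the exact permutation tests. Without Ctrl replicate 3 those of *Ppy* and *Pyy* were -0.15 and 0.21. That of *Npy* was 0.15 without Ctrl replicate 1 and 0.16 without cKO replicate 2, and that of *Ghrl* was 0.88 without cKO replicate 2. The ratio of *Gcg* to *Sst* was 2.22 ± 0.433 in Ctrl and 1.87 ± 0.184 in cKO (exact permutation test, p = 0.3, adjusted p = 0.471). With 3 samples in each group, no ratio could reach a p under 0.1.

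**Figure D2:**
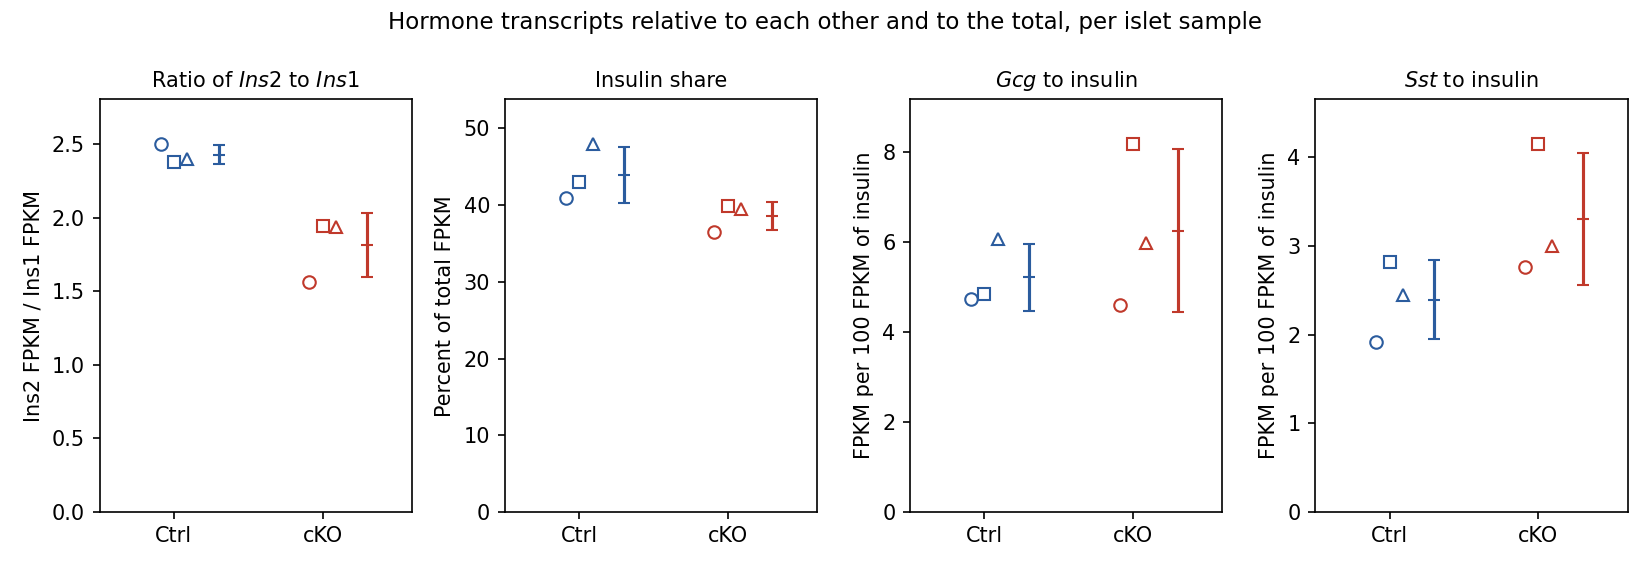
Ratio of *Ins2* to *Ins1*, insulin share of the total FPKM in percent, and *Gcg* and *Sst* in FPKM per 100 FPKM of insulin, for each sample (circle, square and triangle for replicates 1, 2 and 3; Ctrl blue, cKO red) with the mean and SD of each group at the right of its points. The groups do not overlap in the first pair of panels, with mean ratios of 2.43 and 1.81 and mean shares of 44.0% and 38.6%, and overlap for *Gcg* and *Sst*.

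The spread between samples differed among the hormones. In Ctrl, the coefficient of variation was 7.20% for *Ins2* and 9.50% for *Ins1*, 16.7% for *Iapp*, and between 21.0% and 29.7% for *Gcg*, *Sst*, *Ucn3*, *Ghrl*, *Pyy* and *Npy*, and 44.3% for *Ppy*. In cKO it was 4.58% for *Ins1*, 3.49% for *Iapp* and 9.91% for *Ins2*, against 30.2% for *Gcg* and 94.7% for *Ghrl*. Apart from *Iapp* in cKO, each of the other genes had a larger coefficient of variation than both insulin genes in the same group.

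The receptors through which these peptides act were listed with their accessory proteins, and 14 of 22 were tested. At an unadjusted p under 0.05, 0 were lower and 0 higher in cKO, beside 3% and 4.34% of all genes. Higher values without overlap were found in 1, near the 7.11% of all genes. This was *Sstr2*, with 0.754 ± 0.130 FPKM in Ctrl and 0.993 ± 0.101 in cKO, named after its values were seen. It rests on few reads, 33, 21 and 27 in Ctrl and 35, 35 and 43 in cKO. The median log2FC of the receptor list was -0.10, beside -0.014 for all genes. *Glp1r*, the receptor of the incretin GLP-1, had a mean FPKM of 141.3 ± 57.0 in Ctrl and 102.9 ± 21.0 in cKO (log2FC -0.38, limma adjusted p = 0.836). Ctrl replicate 1 was the lowest sample, at 77.1, and without it the log2FC was -0.76 (unadjusted p = 0.0106), against -0.14 without Ctrl replicate 3. The glucagon receptor *Gcgr* had 12.2, 22.2 and 21.4 FPKM in Ctrl and 14.0, 8.10 and 12.2 in cKO. Its log2FC was -0.64 (limma adjusted p = 0.696), -0.91 without Ctrl replicate 1 (unadjusted p = 0.00815), -0.80 without cKO replicate 1 (unadjusted p = 0.0483) and -0.44 without cKO replicate 2 (unadjusted p = 0.175). The somatostatin receptor *Sstr3* had 57.5 ± 4.70 and 51.3 ± 4.78 FPKM.

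Of 28 other peptide hormone genes, 17 were tested, and 1 lower and 4 higher values had an unadjusted p under 0.05, beside 3% and 4.34% of all genes, with 0 past the adjusted threshold. In 3 of them, the cKO samples lay above all Ctrl samples, as in 7.11% of all genes. The median log2FC of this list was 0.18. *Vip*, which encodes vasoactive intestinal peptide, had 16.0, 6.93 and 18.1 FPKM in Ctrl and 31.6, 59.4 and 20.1 in cKO (log2FC 1.34, SE 0.478, limma adjusted p = 0.622). The cKO samples were all higher, and cKO replicate 2 was the highest of them. The unadjusted p of *Vip*, 0.0294, was 0.0837 without Ctrl replicate 2, 0.0619 without cKO replicate 1 and 0.0816 without cKO replicate 2. *Penk*, the gene of the enkephalins, had 1.68, 0.973 and 0.331 FPKM in Ctrl and 2.75, 3.31 and 5.89 in cKO (log2FC 1.33, limma adjusted p = 0.472). *Gal*, which encodes galanin, an inhibitor of insulin release, had 3.02 ± 0.674 in Ctrl and 6.43 ± 2.49 in cKO (log2FC 0.84, limma adjusted p = 0.563), and its unadjusted p of 0.0156 was 0.0532 without Ctrl replicate 2. *Tac1*, the gene of substance P, had 1.64 ± 0.804 and 3.92 ± 1.62 FPKM, with overlap, and its unadjusted p of 0.0331 rose to between 0.0696 and 0.104 when replicate 1 or 2 of either group was left out. Among the abundant members, *Pdyn* had 14.1 ± 4.81 and 14.7 ± 6.94 FPKM and *Pomc* 5.51 ± 0.253 and 6.41 ± 0.883. *Gast*, the gene of gastrin, was the member that was lower, from 0.875 ± 0.535 to 0.205 ± 0.144 FPKM, with overlap, and is named here after its values were seen. These values rest on 9, 9 and 2 reads in Ctrl and 3, 1 and 1 in cKO. Its unadjusted p of 0.0430 was 0.00112 without Ctrl replicate 3 and between 0.0507 and 0.132 when any other sample was left out.

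All 14 genes for the processing of peptides and for granule proteins were tested. At an unadjusted p under 0.05, 2 were higher and 0 lower in cKO, beside 4.34% and 3% of all genes. Without overlap, 5 were higher and 1 lower, beside 7.11% and 6.03% of all genes, and the median log2FC was -0.040. *Chgb*, which encodes the granule protein chromogranin B, had 780.7, 740.6 and 725.9 FPKM in Ctrl and 1461, 1413 and 1422 in cKO. Both groups were tight and far apart, with a log2FC of 0.93 (SE 0.0865), and the limma adjusted p of 0.264 was the smallest of all genes, shared by 2 genes. With a pseudocount of 10 its adjusted p was 0.00894. Its relative *Chga* had 4563 ± 106.4 and 4216 ± 259.7 FPKM, with overlap. *Scg2*, which encodes secretogranin II, had 1596, 1848 and 1609 FPKM in Ctrl and 1430, 1507 and 1441 in cKO, all below Ctrl (log2FC -0.20, limma adjusted p = 0.725). *Pcsk1*, which encodes the convertase PC1/3 that cuts proinsulin, had 128.2, 144.6 and 105.4 FPKM in Ctrl and 158.0, 170.6 and 187.0 in cKO. Each cKO sample was above each Ctrl sample (log2FC 0.45, SE 0.144, limma adjusted p = 0.569), and the unadjusted p of 0.0185 was 0.0648 without cKO replicate 3. *Cpe* and *Pam*, which encode enzymes that trim and amidate peptides, also had higher values without overlap, at log2FC of 0.13 and 0.12 (limma adjusted p = 0.825 for both). So had *Mboat4*, on 0, 0 and 1 reads in Ctrl and 11, 4 and 4 in cKO.

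Of 14 regulators of hormone genes, 13 were tested, and 0 passed the adjusted threshold. The median log2FC of these regulators was -0.030. The activators of insulin transcription *Mafa* and *Pdx1* had 414.9 ± 74.9 and 75.6 ± 16.8 FPKM in Ctrl and 337.4 ± 55.8 and 76.4 ± 4.58 in cKO, with overlap (limma adjusted p = 0.800 and 0.975). *Nkx6-1*, another β cell factor, had 135.8 ± 23.7 and 125.1 ± 8.74 FPKM.

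The genes most like a hormone in pattern were found among 3864 genes whose mean FPKM was 10 or more, by the root mean square difference of mean-centred log2(FPKM + 1) over the 6 samples. For *Ins2*, whose own root mean square deviation was 0.25, they were *Akr1c14*, *Eif4a2* and *Cox7a2l*, with differences of 0.052, 0.070 and 0.076. *Akr1c14* had 11, 13.0 and 12.4 FPKM in Ctrl and 8.12, 8.79 and 9.49 in cKO. For *Gcg* they were *1700086L19Rik*, *Tubb3* and *Ttr*, with differences of 0.12, 0.15 and 0.15, and *Ttr* was also in the list of α cell markers. For *Ppy* they were *Tomm5*, *Rpl34* and *Ssr2*, at 0.17, 0.18 and 0.21, which like *Ppy* had their lowest value in Ctrl replicate 3.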

How the data were processed

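Total RNA of islets was extracted with TRIzol and libraries were made with a SMARTER mRNA kit. The authors deposited FPKM per gene and sample on GRCm38 (mm10). The aligner, the counting, the read length and the use of strand were not given in the sources used here. Samples were grouped by their labels. The library size implied by FPKM and gene length equalled, in each sample, the median-ratio size factor of its reads times 17062589, the geometric mean of the reads on genes, so that it is a scaling size and not the depth.

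From these values, log2(FPKM + 1) was compared between cKO and Ctrl with limma 3.58.1 in R 4.3.3 (empirical Bayes, two-sided, Benjamini-Hochberg adjustment over genes whose mean FPKM was 0.1 or more). The FPKM as deposited were compared, and voom on the reads read back is an alternative. No trend of the prior variance was fitted: this was decided with an earlier fit of these data known, in which the trend gave *Ins2* a standard error many times the spread of its samples, and the fit with the trend is given as an alternative. Shares and log2 ratios were compared with exact permutation tests over the samples. Python 3.11.15, numpy 2.4.6, pandas 2.3.3, scipy 1.17.1 and matplotlib 3.10.9 were used. The code was tested on simulated data.

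The genes and lists were chosen with earlier results of these data known. Named are the 10 hormone genes, *Parn*, from each list the 3 most abundant members and up to 5 with the largest change among those at an unadjusted p under 0.05 or without overlap (mean FPKM 1 or more), and for *Ins2*, *Gcg* and *Ppy* the 3 genes nearest in pattern. *Ero1b* was matched by a RefSeq synonym. Ductal and Schwann markers were also summed: at most 87.0 and 3.68 FPKM in a sample. Alternatives covered the pseudocount, the filter, the trend, the scaling, voom on the reads, a replicate block and leaving out each sample.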

Additional observations from a re-analysis of the deposited data

How the results depend on the processing

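Of 686 values recomputed under alternatives, 604 counted as kept. Log2 fold changes had to keep their direction and their side of an unadjusted p of 0.05. Shares and log2 ratios had to keep their direction and move by no more than the spread between samples. Counts of genes had a wide margin: 939 lower genes with no filter counted as kept against 636. The filter, the trend and the replicate block leave log2 fold changes as they were, so that only their p could move. No alternative brought a hormone gene under an adjusted p of 0.05. Median-ratio scaling is already in the deposited FPKM, so that this alternative could change little, and it gave 637 lower and 919 higher genes at an unadjusted p under 0.05 against 636 and 921. With 3 samples in each group, the exact tests cannot go below 0.1, and among the hormone genes only *Ghrl* rests on few reads. The insulin share and the ratio of *Ins2* to *Ins1* kept their direction in every alternative, between -6.92 (without Ctrl replicate 1) and -3.36 (without Ctrl replicate 3) percentage points and between -0.48 and -0.32.

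*Ins2* and *Iapp* kept an unadjusted p under 0.05 in 16 of 17 alternatives each. The exception was the trend of the variance prior, with the same log2 fold changes of -0.46 and -0.54. The causes of the changes below were not tested. Rescaling to equal totals gave 304 lower and 1720 higher genes at an unadjusted p under 0.05, and log2 fold changes of 0.10 for *Ins1*, 0.046 for *Gcg*, -0.45 for *Ucn3*, -0.33 for *Ins2*, -0.40 for *Iapp*, 0.11 for *Pdyn*, 0.022 for *Chga*, 0.030 for *Nkx6-1*, -0.067 for *Scg2*, 0.27 for *Cpe*, 0.26 for *Pam* and 0.30 for *Pomc*, where the last 3 gained an unadjusted p under 0.05. This rescaling adds 0.14 to the log2 fold change of each abundant gene alike, and 0.17 with the acinar markers left out of the totals, so that signs and calls that change with it say nothing particular to these genes. Equal totals without the acinar markers, chosen after the data were seen, moved the median of all genes by 0.11 and gave 270 and 2127 genes, and 0.13, 0.076, -0.42, -0.30, -0.37, 0.14, 0.052, 0.060, -0.037, 0.30, 0.28 and 0.32 for the same genes in this order, with 0.0025 for *Sstr3*. Equal totals without the hormone genes gave -0.0068 for *Ppy*. The genes at an adjusted p under 0.05 numbered 3 with a pseudocount of 0.1 and 1 with a pseudocount of 10, which gave 0.013 for *Pdyn*. The unadjusted p was 0.0216 for *Scg2* and 0.0492 for *Pam* with a pseudocount of 10, and 0.0362 for *Scg2* with no filter.

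Leaving out each sample in turn gave 414 (without cKO replicate 3) to 1109 (without Ctrl replicate 1) lower genes and 0 to 9 genes at an adjusted p under 0.05, the 9 without Ctrl replicate 1. The log2 fold changes ranged from -0.11 to 0.018 for *Ins1*, -0.30 to 0.15 for *Gcg*, -0.077 to 0.29 for *Sst*, -0.43 to 0.27 for *Ppy*, -0.065 to 0.34 for *Pyy*, -0.23 to 0.22 for *Npy*, -0.53 to -0.38 for *Ins2*, -0.67 to -0.42 for *Iapp*, -0.80 to -0.46 for *Ucn3* and 0.35 to 1.40 for *Ghrl*, whose unadjusted p was 0.0197 without cKO replicate 3. They ranged from -0.91 to -0.44 for *Gcgr*, -0.76 to -0.14 for *Glp1r*, -0.24 to 0.44 for *Pdyn*, -0.21 to 0.029 for *Nkx6-1* and -0.16 to 0.14 for *Pdx1*, and the log2 ratios to insulin from -0.15 to 0.65 for *Ppy*, 0.21 to 0.71 for *Pyy*, 0.15 to 0.60 for *Npy* and 0.88 to 2.33 for *Ghrl*.

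Same-numbered samples did not deviate together across genes (r = -0.17, -0.022 and -0.065), and pairs of different number gave r of -0.077 to 0.13. Deviations from the mean of 3 samples are tied to each other, so these values cannot decide whether the numbers pair the samples. The labels did not state a pairing. With the replicate block, 524 genes were lower and 726 higher at an unadjusted p under 0.05, and 0 passed the adjusted threshold. With this block, the limma unadjusted p rose above 0.05 for *Vip* (0.0768) and *Tac1* (0.0826), with the same log2 fold changes.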
